A study of Rattus norvegicus with 8 samples.

Results

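The early growth response (EGR) transcription factors and their NAB corepressors were followed in rat Achilles tendon after a single bout of running. The members were taken by gene symbol from the deposited expression table, which lists 15590 genes. Of the 6 genes named, 5 had a row: the transcription factors Egr1, Egr2 and Egr3 and the corepressors Nab1 and Nab2. Egr4 was not analysed here. All 5 passed the filter on low expression. The rule uses symbols only, but the set was proposed with earlier results of these data known.

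RNA was sequenced from right Achilles tendons of male Sprague-Dawley (SD) rats, labelled wild type and, in the methods of the study, 8 to 10 weeks old. In the post-run group (0 h p.r., 4 libraries), rats ran uphill on a treadmill for 1 h and the tendon was taken immediately. Airflow and a mild electric stimulus kept the rats running, after a short training on the belt. In the naïve control group (NC, 4 libraries), rats kept to their usual cage activity. The sample labels describe the controls as killed immediately, whereas the methods state that cage controls were killed together with the rats rested for 12 h. Running, its stimuli and the hour of killing therefore cannot be told apart between the groups. No source ties a library to a named animal, so the p-values measure the spread between these libraries.

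EGR proteins are zinc finger transcription factors whose genes are switched on within minutes of growth factor, stretch or stress signals, without new protein synthesis. They bind short GC-rich sites in promoters. NAB1 and NAB2 bind to EGR1, EGR2 and EGR3, recruit the nucleosome remodelling and deacetylase (NuRD) complex and mostly repress EGR target genes, and NAB2 is itself known as an EGR-induced gene, which closes a negative feedback loop. In tendon, EGR1 and EGR2 are known for their part in the expression of scleraxis and fibrillar collagens during development and repair.

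Because the members are regulators with well-known regulatory sequences, the bases upstream of their starts are shown, as annotated by RefSeq on the rat build GRCr8, which is not the build used for alignment. Each window covers the 250 bases before the annotated start, on the strand of the gene. That of Egr1 is chr18:26736828-26737077 on the plus strand, that of Egr2 is chr20:21054442-21054691 on the minus strand, that of Nab1 is chr9:56545392-56545641 on the plus strand and that of Nab2 is chr7:65389256-65389505 on the minus strand. Capitals mark matches on either strand to the CArG box (the site of serum response factor), to the cyclic AMP response element (CRE) core TGACG and to the EGR motif GCGNGGGCG.
Egr1: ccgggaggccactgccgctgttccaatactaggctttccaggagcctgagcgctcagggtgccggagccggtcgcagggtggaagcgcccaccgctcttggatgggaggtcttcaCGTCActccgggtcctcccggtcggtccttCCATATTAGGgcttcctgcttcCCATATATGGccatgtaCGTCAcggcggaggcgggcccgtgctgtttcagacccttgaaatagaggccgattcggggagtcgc
Egr2: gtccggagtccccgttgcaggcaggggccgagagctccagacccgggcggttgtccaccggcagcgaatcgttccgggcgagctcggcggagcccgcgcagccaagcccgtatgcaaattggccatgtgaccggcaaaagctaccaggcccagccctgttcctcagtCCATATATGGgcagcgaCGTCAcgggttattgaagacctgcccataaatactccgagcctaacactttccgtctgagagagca
Nab1: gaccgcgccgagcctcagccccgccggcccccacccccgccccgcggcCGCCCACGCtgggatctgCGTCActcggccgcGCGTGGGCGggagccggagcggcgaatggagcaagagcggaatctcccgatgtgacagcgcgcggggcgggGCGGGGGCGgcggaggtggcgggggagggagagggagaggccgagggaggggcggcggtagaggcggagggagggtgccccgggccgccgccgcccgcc
Nab2: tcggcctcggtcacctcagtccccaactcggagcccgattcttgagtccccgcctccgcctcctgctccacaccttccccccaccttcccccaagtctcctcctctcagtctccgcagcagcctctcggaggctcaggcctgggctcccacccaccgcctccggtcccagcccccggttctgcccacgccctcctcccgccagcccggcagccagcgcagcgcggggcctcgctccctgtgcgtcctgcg
No window was matched to Egr3 among the RefSeq starts used here, so none is shown.

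Egr1 held 2 CArG boxes, at -105 to -96 and at -83 to -74 from its start, and Egr2 held 1, also at -83 to -74. In both genes a CRE core on the other strand followed at -66 to -62, and Egr1 held another at -135 to -131. Among 33465 rat promoter windows of 250 bases before and 50 after a start, 1.64% held a CArG box and 21.2% held the CRE core. Nab1 held 4 EGR motifs in the same window, 3 of them upstream and 1 at 15 to 23 bases after the start, whereas 4.98% of all windows held any. The Nab1 window was also far richer in G and C (81.7%) than the median window (51.7%), and the share among windows of like GC content was not computed. It also held 1 CRE core, at -184 to -180 on the other strand. The GC box GGGCGG, which can overlap the EGR motif, occurred 10 times in the Nab1 window, once in that of Egr2 and in 33.1% of all windows. The Nab2 window matched none of these letters. A match is a description of letters and does not show that a factor binds there.

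**Figure D1:**
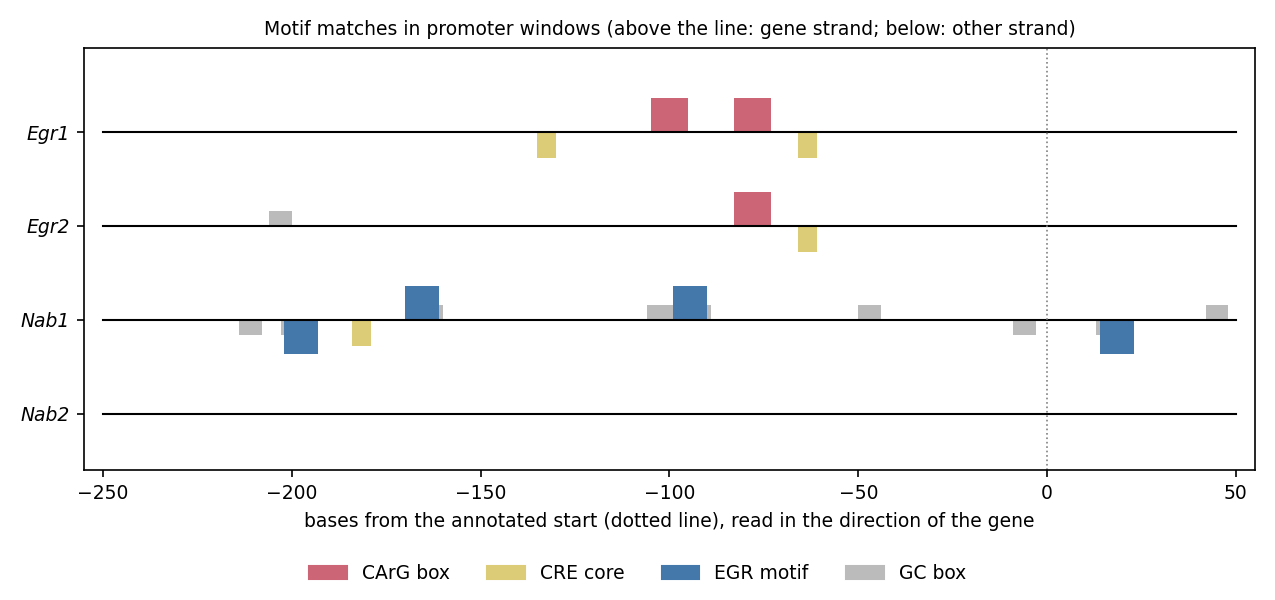
Matches to the 4 motifs by distance in bases from the annotated start of each gene (250 bases before to 50 after), drawn above the line on the strand of the gene and below it on the other strand. The CArG box at -83 and the CRE core at -66 lie at the same distance in Egr1 and Egr2, Nab1 carries 4 EGR motifs and Nab2 has no match.

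The libraries held between 11347559 and 17894688 reads on genes, as recovered from the deposited values. Across the 13863 genes tested, which are not independent replicates, Pearson's r of log2 values was 0.951 to 0.974 within NC, 0.921 to 0.969 within 0 h p.r. and 0.918 to 0.958 between the groups. NC replicate 2 was the shallowest library, and the 13 mitochondrial genes took 31.1% of its summed FPKM against 16.3% to 21.9% in the others. The summed FPKM of 8 skeletal muscle markers ranged from 1024 in 0 h p.r. replicate 4 to 33699 in 0 h p.r. replicate 1, with NC between 4279 and 7066. All 10 tenocyte markers were expressed, summing to 7629 to 13353 in NC and 10803 to 22391 in 0 h p.r., and none passed the test. Dcn, the largest part of that sum, ranged from 3630 to 6746 in NC and from 5212 to 14777 in 0 h p.r. Of the 10 markers, 7 had a positive and 3 a negative log2 fold change, with a median of 0.07. In bulk tissue such as this, fewer cells of a type and less RNA per cell cannot be told apart.

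Expression is given as FPKM, fragments per kilobase of gene scaled for depth, so levels of different genes can be compared. Groups were compared with limma on log2(FPKM + 0.5), and a gene was counted as changed at a Benjamini-Hochberg adjusted p under 0.05 over all tested genes and a fold of at least 2. By this rule Egr1 and Egr3 rose, that is 2 of the 5 tested members, where 1.8% of all tested genes were called higher. None of the members was lower. In 4 of the 5, all but Nab1, every 0 h p.r. library lay above every NC library, which was the case for 8.15% of all tested genes. No member showed the opposite order, found in 7.47% of them.

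Egr1 (ENSRNOG00000019422), the best-known immediate-early member of the family, had the highest expression of the 3 EGR genes. Its FPKM in NC replicates 1 to 4 was 13.8, 8.10, 24.2 and 17.2, and in 0 h p.r. replicates 1 to 4 it was 80.7, 120.2, 66.9 and 68.8. The lowest post-run library was thus well above the highest control, and the controls spread more, with a highest value 2.98 times the lowest against 1.80 times after running. The mean rose from 15.8 ± 6.71 (SD, n = 4) to 84.2 ± 24.8 (SD, n = 4). The log2 fold change was 2.44 (SE 0.31), or 5.41-fold with a 95% interval of 3.31 to 8.85, at a limma adjusted p of 0.00486. These values rest on 251 to 1110 reads per NC library and 2684 to 6824 per 0 h p.r. library. With each of the 8 libraries left out in turn, the log2 fold change stayed between 2.16 and 2.67 and Egr1 passed both thresholds each time, also without the library richest in muscle transcripts (2.44, limma adjusted p 0.0169).

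Egr2 (ENSRNOG00000000640), known as KROX20 and for its role in myelination by Schwann cells, was the lowest of the members in both groups. Its FPKM in NC replicates 1 to 4 was 1.65, 1.31, 2.66 and 2.18, and in 0 h p.r. replicates 1 to 4 it was 2.95, 7.01, 3.60 and 6.51. The groups did not overlap, but 0 h p.r. replicate 1 lay close to the highest control. The means were 1.95 ± 0.591 and 5.02 ± 2.04 (SD, n = 4 each). The log2 fold change was 1.12 (SE 0.29, 95% interval 0.47 to 1.78) at a limma adjusted p of 0.0563, so Egr2 did not pass the test. Without 0 h p.r. replicate 1 it did (1.32, limma adjusted p 0.0492). Counting error is larger here than for Egr1, with 42 to 126 reads per NC library and 127 to 411 per 0 h p.r. library. The study, which used DESeq2, lists Egr2 among the differentially expressed genes of its enriched processes after running. That listing also holds Mmp13, which the study describes as not significant after adjustment, so the threshold behind it is not clear.

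Egr3 (ENSRNOG00000017828), a relative known from muscle spindle development and lymphocyte activation, was higher than Egr2 in each of the 8 libraries. Its FPKM in NC replicates 1 to 4 was 1.97, 1.68, 4.40 and 4.07, and in 0 h p.r. replicates 1 to 4 it was 7.44, 13.6, 5.70 and 10.2. Every post-run library lay above every control. The mean rose from 3.03 ± 1.40 to 9.25 ± 3.47 (SD, n = 4 each), on 45 to 175 and 198 to 671 reads per library. The log2 fold change was 1.49 (SE 0.34), or 2.81-fold with a 95% interval of 1.66 to 4.76, at a limma adjusted p of 0.0385. This call was close to the threshold. It was kept without NC replicate 3 (limma adjusted p 0.0477) or NC replicate 4 (0.0496), and lost without any of NC replicates 1 and 2 and 0 h p.r. replicates 1, 2, 3 and 4, where the adjusted p ran up to 0.111 while the log2 fold change stayed at 1.29 or above.

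Nab1 (ENSRNOG00000012959), the corepressor that is commonly regarded as the steadily expressed one, showed little spread. Its FPKM in NC replicates 1 to 4 was 18.1, 18.4, 17.8 and 16.2, and in 0 h p.r. replicates 1 to 4 it was 18.8, 21.4, 22.7 and 17.8. The groups overlapped, with 0 h p.r. replicate 4 below 3 of the 4 controls. The means were 17.6 ± 1.01 and 20.2 ± 2.30 (SD, n = 4 each). The log2 fold change was 0.19 (95% interval -0.07 to 0.44) at a limma adjusted p of 0.384, an interval that runs from 0.952-fold to 1.36-fold and so leaves out a change of 2-fold in either direction.

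Nab2 (ENSRNOG00000008415), the inducible corepressor, had FPKM values of 18.1, 14.6, 15.9 and 16.3 in NC replicates 1 to 4. In 0 h p.r. replicates 1 to 4 they were 24.1, 28.5, 20.7 and 27.6, all above the controls. The means were 16.2 ± 1.44 and 25.2 ± 3.57 (SD, n = 4 each). The log2 fold change was 0.61 (SE 0.13), or 1.53-fold with a 95% interval of 1.25 to 1.88. Its limma adjusted p of 0.0322 was under 0.05, as it was for 3.49% of all tested genes in the same direction, but the fold was under 2, so Nab2 was not counted among the changed genes. Without NC replicate 1, 2, 3 or 4 or 0 h p.r. replicate 1 or 2, the adjusted p was over 0.05, up to 0.105 without 0 h p.r. replicate 2. With all libraries, the limma adjusted p of Nab2 was 0.330 with equal FPKM sums per library. It was 0.109 with the replicate number as a block and 0.0541 after quantile normalization.

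**Figure D2:**
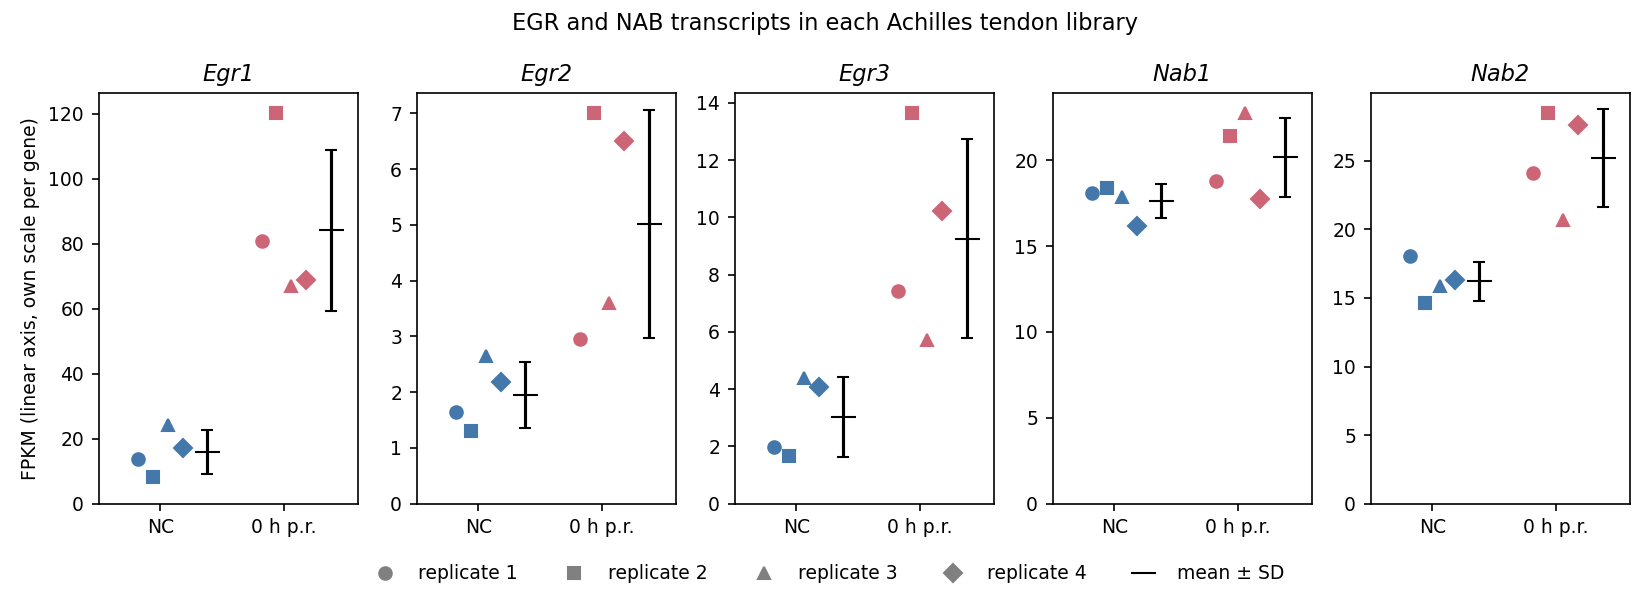
FPKM of each member in the 4 NC and the 4 0 h p.r. libraries, on a linear axis from 0 with its own scale for each gene. Marker shapes are replicate numbers and bars are the mean ± SD; the groups are apart for Egr1, Egr2, Egr3 and Nab2 and overlap for Nab1.

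**Figure D3:**
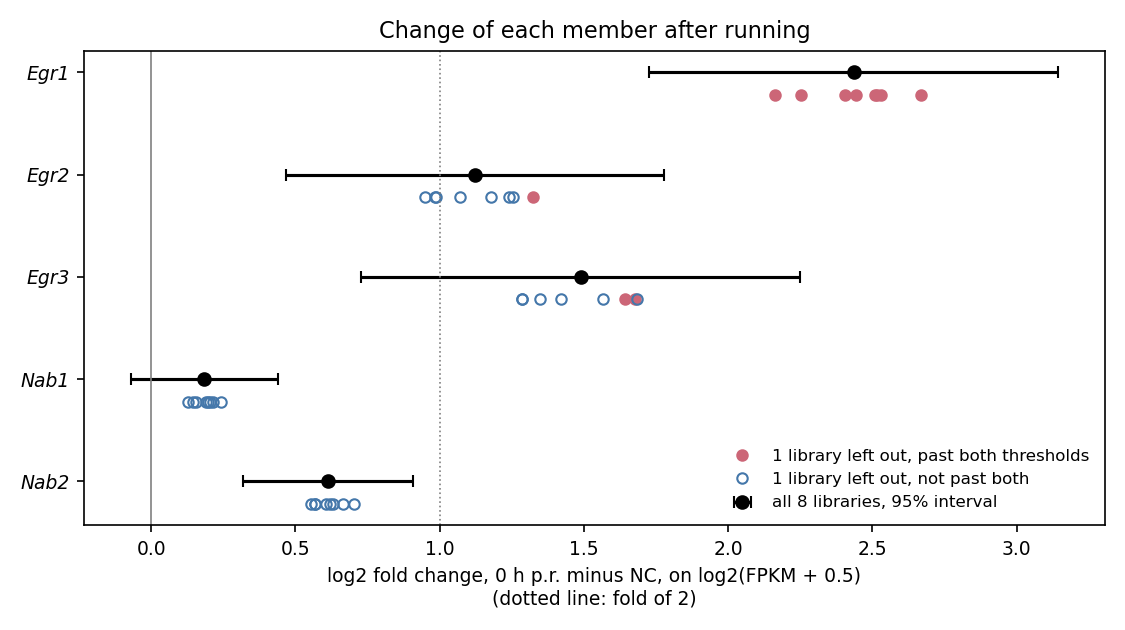
Log2 fold change of each member, 0 h p.r. minus NC, with its 95% interval (black), and the values with 1 library left out (circles below, filled where both thresholds were passed). Egr1 stays past both thresholds throughout, Egr3 keeps its call in 2 of 8 fits and Nab2 stays under the fold of 2.

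The libraries of a group did not rank alike for all members. Among the controls, Egr1, Egr2 and Egr3 shared 1 order, lowest in replicate 2, then replicates 1, 4 and 3. After running, replicate 2 was the highest for Egr1, Egr2, Egr3 and Nab2, and replicate 3 was the lowest for Egr1, Egr3 and Nab2. Nab1 followed neither order, since its highest NC library was replicate 2 and its highest 0 h p.r. library was replicate 3. These orders rest on 4 libraries each and were not tested.

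At rest, FPKM placed Nab1 (17.6), Nab2 (16.2) and Egr1 (15.8) close together, with overlapping ranges. Egr3 (3.03) and Egr2 (1.95) followed lower, and their ranges overlapped as well. After running Egr1 (84.2) stood first, and its lowest library was above the highest of Nab2 (25.2). The ranges of Nab2 and Nab1 (20.2) overlapped, as did those of Egr3 (9.25) and Egr2 (5.02). The summed FPKM of the 3 EGR genes ran from 11.1 to 31.2 at rest and from 76.2 to 141 after running, and Egr1 made up 73.0% to 79.2% of it before and 80.4% to 88.6% after. The summed FPKM of Nab1 and Nab2 ran from 32.5 to 36.2 at rest and from 42.9 to 49.9 after running. In each control there was thus more NAB than EGR transcript, 1.08 to 2.98 per EGR transcript, and in each post-run library less, 0.354 to 0.570. These are transcript levels, and no protein was measured.

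To ask whether members moved by different amounts, 4 ratios within each library were compared by an exact two-sided permutation test with adjustment over the 4. The 8 libraries can be assigned in 70 ways, so 0.0286 is the smallest p it can give. The log2 ratio of Nab2 to Egr1 was 0.38, 0.81, -0.59 and -0.07 in NC replicates 1 to 4 and -1.72, -2.06, -1.67 and -1.30 in 0 h p.r. replicates 1 to 4. It was lower by 1.82 after running, lower in 4 of 4 libraries than in any control (exact permutation p 0.0286, adjusted 0.0381). The corepressor thus moved less than the factor whose gene leads the family. The log2 ratio of Egr2 to Egr1 went from -2.67 ± 0.30 to -3.98 ± 0.51 and that of Egr3 to Egr1 from -2.20 ± 0.28 to -3.15 ± 0.34 (SD, n = 4 each). Both were without overlap and gave the same exact permutation p of 0.0286 and adjusted p of 0.0381, so Egr1 rose by more than either relative on this scale. The pseudocount of 0.5 understates the change of genes as low as Egr2, and with 0.1 in its place the adjusted p of the 3 ratios to Egr1 was between 0.0571 and 0.0762, while their signs held. Without NC replicate 1, 2, 3 or 4 their adjusted p was 0.0762, and without any 1 post-run library it stayed under 0.05. The groups stayed without overlap in all these fits, and with a library fewer the test has fewer assignments and coarser steps of p. The log2 ratio of Nab2 to Nab1 averaged -0.12 ± 0.16 among the controls and 0.31 ± 0.32 after running (SD, n = 4 each), a difference of 0.43 with an exact permutation p of 0.0857. There 0 h p.r. replicate 3, the only post-run library with more Nab1 than Nab2, lay within the range of the controls. Without it the adjusted exact permutation p was 0.0286. Since dropping the only overlapping library sets the groups apart, this value adds no support for a difference.

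**Figure D4:**
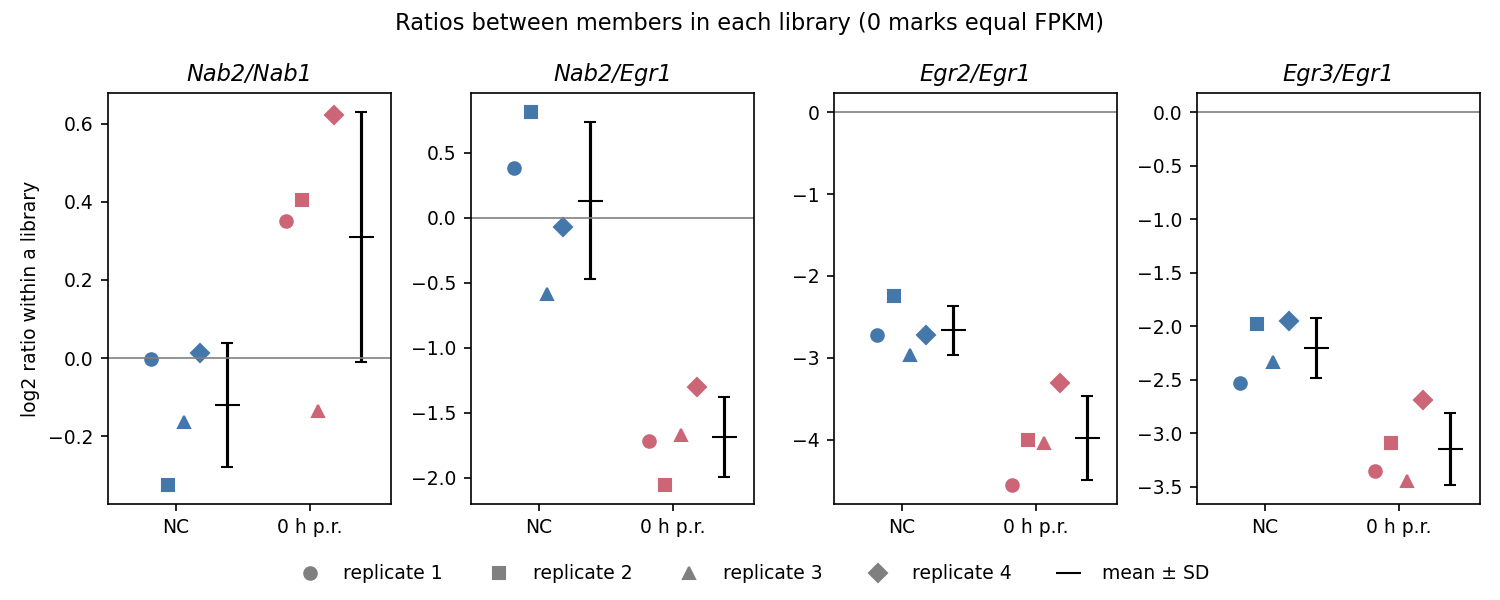
Log2 ratio of FPKM + 0.5 of pairs of members within each library, with the line at 0 marking equal levels, marker shapes for replicate numbers and bars for the mean ± SD. All post-run libraries lie below all controls for Nab2, Egr2 and Egr3 relative to Egr1, and the groups overlap for Nab2 relative to Nab1.

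Genes that act upstream of EGR transcription were looked at next. Of 10 tested activators, none passed both thresholds, beside 2.7% of all tested genes, and the median log2 fold change was 0.13, against 0.00 over all tested genes. Srf, which encodes the serum response factor that binds CArG boxes, was between 13.8 and 20.0 FPKM in the controls and between 26.2 and 37.6 in the post-run libraries. Its groups did not overlap and its limma adjusted p was 0.0142, but its log2 fold change of 0.90 was under the fold of 2. Elk3, an ETS partner of the serum response factor, had a log2 fold change of -0.33 (limma adjusted p 0.145). The remainder, among them the MAP kinase gene Mapk3 and the CRE-binding factor gene Creb1, had values between -0.20 and 0.21.

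The partners of the EGR and NAB proteins followed. Of 13 tested NuRD genes none passed both thresholds, beside 2.7% of all tested genes, and the median log2 fold change was 0.13. In 5 of the 13 (Mta2, Hdac2, Rbbp4, Gatad2a and Mbd2, named after their values were seen) every post-run library lay above every control, beside 8.15% of all tested genes. The summed FPKM of the 13 was 400 to 444 at rest and 458 to 479 after running, without overlap, which was not tested. The largest values were those of Gatad2a, a scaffold subunit (0.45, limma adjusted p 0.0672), and Chd4, the remodelling ATPase that NAB2 binds (0.31, limma adjusted p 0.288). The coactivator gene Crebbp was at 0.22 (limma adjusted p 0.549). Of 3 genes for SP factors, which share GC-rich sites with the EGR proteins, none passed, and Sp4 (0.41) and Sp3 (0.10) had the largest values.

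Genes reported elsewhere as EGR targets were described next. Of 24 tested, 9 rose and none fell, beside 1.8% of all genes called higher and 0.894% called lower, and the median log2 fold change was 0.77. The 9 included both SOCS genes of the list, inhibitors of cytokine signalling: Socs3 rose from 16.7 ± 7.85 to 149.6 ± 40.9 FPKM (SD, n = 4 each; log2 fold change 3.21, limma adjusted p 0.00151) and Socs1 by 1.79 on the log2 scale. Thbs1, a matricellular glycoprotein, rose by 1.59. Cd44, the hyaluronan receptor, and Icam1, an adhesion molecule, rose by 1.13 and 1.07. Cdkn1a, an inhibitor of the cell cycle, and Hif1a, the hypoxia-inducible subunit, each rose by 1.11. With each library left out in turn, Cdkn1a lost its call in 4 of 8 fits, without NC replicate 1 or 3 or 0 h p.r. replicate 1 or 2 (limma adjusted p up to 0.0839), and Thbs1 in 2, those lacking NC replicate 1 or post-run replicate 2 (up to 0.0561). Socs3, Socs1, Cd44, Icam1 and Hif1a kept theirs in all 8. With equal FPKM sums per library Cd44, Icam1, Thbs1 and Cdkn1a lost their calls, as did Icam1 after quantile normalization and Cd44, Thbs1 and Cdkn1a with the replicate number as a block. In 13 of the 24 every post-run library lay above every control. Many inputs act on these genes, and whether EGR proteins bound them was not measured.

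Among targets tied to tendon matrix, none of 9 tested genes passed, where 2.7% of all tested genes were called in either direction, so a count of 0 says little about so short a list. The median log2 fold change was 0.05. The largest values were those of Scx, the tendon transcription factor scleraxis, which went from 30.1 ± 7.63 to 41.8 ± 9.65 FPKM (SD, n = 4 each; log2 fold change 0.48, limma adjusted p 0.245), and Tnmd, the tenocyte membrane protein tenomodulin (-0.28, limma adjusted p 0.768). Of 6 myelin genes known as EGR2 targets, 4 could be tested and 0 passed (median log2 fold change -0.26). Pmp22, a compact myelin protein that fibroblasts also express, was at 0.46 (limma adjusted p 0.124).

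Other early-response transcription factors were counted for comparison. Of 14 tested, 12 rose and none fell, beside 1.8% of all genes called higher, with a median log2 fold change of 2.28. In 13 every post-run library lay above every control, beside 8.15% of all genes. The largest called values were those of the orphan nuclear receptors Nr4a3 (3.61) and Nr4a1 (3.45) and of the AP-1 subunit gene Junb (2.88). Atf3 (2.70), Fos (2.68), Nr4a2 (2.30), Fosl2 (2.26), Myc (1.87), Ier2 (1.67), Fosl1 (1.67), Klf4 (1.38) and Jund (1.15) also passed. With each library left out in turn, Jund lost its call in all 8 fits (limma adjusted p 0.0517 to 0.118). Klf4 lost it in 5, without NC replicate 1, 2 or 3 or 0 h p.r. replicate 1 or 2 (up to 0.113), Nr4a2 only without 0 h p.r. replicate 2 (0.0501), and the remaining 9 never did. The AP-1 genes that did not pass were Jun (0.52, limma adjusted p 0.118) and Fosb (3.18, limma adjusted p 0.0735), the latter with FPKM of 29.7 in NC replicate 3 against 0.648 to 4.31 in the other controls. The study, by contrast, lists Fosb among the differentially expressed genes of its enriched processes. Egr1 at 2.44 thus lay close to the median of these factors, Egr3 at 1.49 and Egr2 at 1.12 toward their lower end. Differences between genes in this order were not tested.

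**Figure D5:**
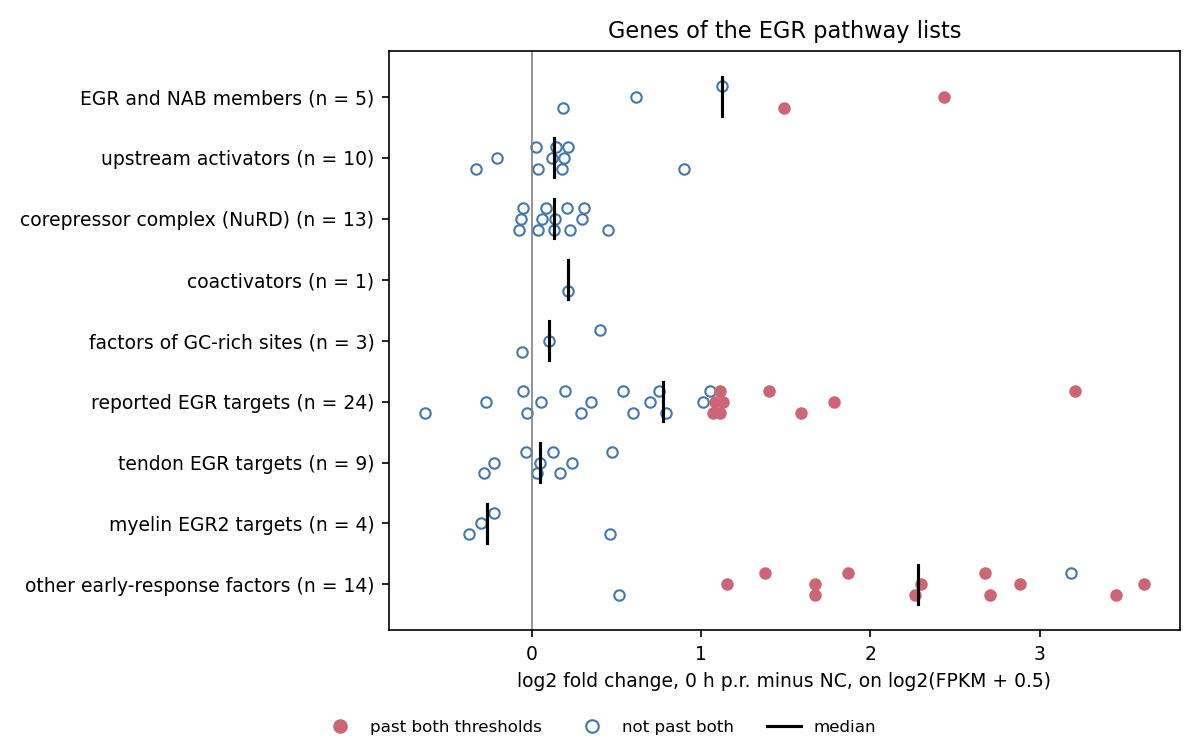
Log2 fold change, 0 h p.r. minus NC, of the members and of each tested gene in the 8 lists of EGR-related genes (1 circle a gene, filled where both thresholds were passed, black line for the median). Calls are found among the members, the reported EGR targets and the other early-response factors, and there are none in the 6 remaining lists.

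For the changed members, the genes with the nearest pattern over the 8 libraries were named by the root mean square difference of centred log2 values, as a description. Nearest to Egr1 of 13862 genes were Bhlhe40, a transcriptional repressor of the clock (0.280), Sik1, a kinase induced by cyclic AMP (0.305), and Fos (0.310), while Egr3 ranked at 41 and Egr2 at 162. Nearest to Egr3 were Thbs1 (0.175), Frzb, a secreted WNT antagonist (0.264), and Errfi1, an inhibitor of the EGF receptor (0.272), with Egr2 at rank 7 and Egr1 at rank 209. Nab2 ranked at 676 for Egr1 and 414 for Egr3, and Nab1 at 3512 and 3878. All these genes share the libraries and their scaling. Values were centred over all 8 libraries, so the difference between the groups enters the distance and the ranks partly restate each gene's fold change.

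Transcripts of other cell types are given beside the EGR values. Among their sums, only that of the adipocyte markers was apart between the groups. All 6 adipocyte markers were lower in every post-run library than in any control, an order found in 7.47% of all tested genes. Adipoq, Cidec, Lep and Retn passed the test, beside 0.894% of all tested genes called lower. The summed FPKM of the 6 was 2378 to 4396 in NC and 780 to 1726 in 0 h p.r. With each library left out in turn Retn kept its call in all 8 fits, whereas Adipoq and Lep kept it only in the 2 fits lacking replicate 4 of either group. Cidec lost it without NC replicate 1 or 2 or 0 h p.r. replicate 2 or 3, and the limma adjusted p of these 3 ran up to 0.105. The 4 cartilage markers summed to 4.89 to 81.7 in NC and 81.7 to 341 in 0 h p.r., and the 4 bone markers to 10.5 to 48.4 and 48.1 to 162. None of the 6 that could be tested passed, and Col10a1, Bglap and Sost were at 0 in at least 1 control. Sums for 7 Schwann cell markers were 427 to 595 in NC and 352 to 533 in 0 h p.r., for 4 endothelial markers 176 to 243 and 172 to 256, and for 5 macrophage markers 49.1 to 86.3 and 33.8 to 74.2, with no gene called. Of the lymphocyte markers only Cd2 had a row, at no more than 0.680 FPKM in any library. In the post-run libraries with the most and the least muscle transcripts, replicates 1 and 4, Egr1 was 80.7 and 68.8 FPKM, both above every control. The part of muscle, adipocyte, cartilage and bone transcripts in the EGR and NAB results was not tested.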

How the data were processed

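PolyA RNA was captured and sequenced in stranded libraries. Per the labels, the authors aligned reads with HISAT2 2.1.0 to Rnor_6.0, counted them with featureCounts 1.6.3 and normalised them with DESeq2 1.30.1. The deposited values are FPKM, scaled so that median levels are alike across libraries. The table also holds the authors' fold changes and p-values, which were not used.

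Groups and replicate numbers came from the sample titles. Genes reaching 0.5 FPKM in 4 or more of the 8 libraries were tested (13863, 1727 left out) with limma 3.58.1 (trend, two-sided) in R 4.3.3 on log2(FPKM + 0.5). The script was tested on simulated data. Whole reads per gene were recovered from the steps of the FPKM values (100.0% of genes whole within 0.005), giving depth and a limma-voom alternative. Levels were not corrected for cell composition.

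Members, lists and tests were chosen with earlier results of these data known. Named were all members, in each list every gene called, or the 2 with the largest change where fewer were called, and the 3 genes nearest in pattern to each called member. A few genes that this rule names are not reported here. Other named genes were chosen after their values were seen. Same-numbered libraries did not deviate together (r -0.14 to 0.07), so no block was used. Alternatives were other pseudocounts (0.1, 1), filters (none, mean FPKM of at least 2), scalings (quantile, equal sums), voom, a replicate block, the adjusted p alone and leaving out each library.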

Additional observations from a re-analysis of the deposited data

How the results depend on the processing

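The rise of Egr1 passed both thresholds under every alternative run, with log2 fold changes of 2.16 to 2.67. The count of changed members, 2, became 1 with equal FPKM sums per library and 1 with the replicate number as a block, and was 1 to 2 with a library left out. It became 3 after quantile normalization and 3 with the adjusted p alone. Changed genes of the lists, 21, became 13 with equal sums and ran from 14 to 20 with a library left out. Egr2 passed after quantile normalization (1.18, limma adjusted p 0.0464) and ran from 0.95 to 1.32 with a library left out. Egr3 lost its call with equal sums (1.48, limma adjusted p 0.142) and with the replicate block (1.49, limma adjusted p 0.106), and ran from 1.29 to 1.68 with a library left out. The libraries share only a number, so the block result is not a weaker effect. With a pseudocount of 0.1 the log2 ratio differences were -1.84 for Nab2 to Egr1 and -1.20 for Egr2 to Egr1 (adjusted exact permutation p 0.0571 each) and -0.85 for Egr3 to Egr1 (0.0762). With a library left out they ran from -2.06 to -1.59, -1.54 to -1.12 and -1.10 to -0.85, and that of Nab2 to Nab1 from 0.33 to 0.58. Without any 1 control the ratios to Egr1 had an adjusted p of 0.0762, though the groups stayed without overlap. Tnmd (-0.28 with all libraries) turned to 0.031 without 0 h p.r. replicate 3, and its lowest value with a library left out was -0.66. Cdh5, an endothelial gene (-0.040), reached 0.085 when 0 h p.r. replicate 4 was left out, turned to 0.0044 in the fit lacking NC replicate 4, and its lowest value with a library left out was -0.13. Beyond these 3 reversals no direction changed among the members, ratios and named genes compared. Of all tested genes 374 passed, 250 higher and 124 lower, against 171 (133 higher, 38 lower) with equal sums, 212 (177 higher, 35 lower) with the block, 418 with voom on recovered reads and 195 to 516 with a library left out; the cause was not tested. Depth limits Egr2 and Egr3 most, with as few as 42 and 45 reads in NC replicate 2.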
